A study of Drosophila melanogaster with 2 samples.

Results

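The pan-neuronal genes elav, fne, Rbp9, Appl, futsch, nrv3 and scrt were followed from glial progenitors to glia. They are 7 of the 13623 genes with an FPKM value, taken by symbol as the ELAV family and as broad neuronal markers that are not part of the transmitter release machinery, and all 7 were measured in both libraries. Nuclear RNA came from 1 library of GNP (Gcm-expressed neural progenitor) nuclei and 1 library of glial nuclei. The nuclei were pulled by their FLAG tag from homogenates of whole cross-linked Drosophila melanogaster embryos, an approach called INTACT. The GNP embryos were 5–7 h old and carried gcm-Gal4 and UAS-mCDGFP over the balancer cyo, together with UAS-3xFLAG-blrp-mCherry-RanGap. The glial embryos were 12–14 h old and carried repo-Gal4 and the same tag transgene over Tm3B, without UAS-mCDGFP. These genotypes are those of the labels, while the methods name the glial balancer Tm3 and give the parents of the GNP embryos without a balancer. Each driver marks the cells that use its promoter, and gcm is also known to be active in blood cell precursors. The labels call the GNP sample early glial cells and the glia sample late glial cells. Cell type, age and driver line changed together between the libraries and cannot be told apart.

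With 1 library of each cell type, no difference has a replicate check and no test was made. FPKM is the number of reads per kilobase of transcript, scaled to the mapped reads of the library, so the levels of genes can be set side by side. A change is given as the difference of log2(FPKM + 1), glia minus GNP, a scale on which low genes appear to change less than they do, and a gene was counted as changed when it differed at least 2-fold on this scale. In these nuclei, as in any bulk sample, a change in the number of cells that use a gene and a change in its RNA per cell cannot be told apart. From the steps of whole reads among low values the number of mapped reads was estimated as 63.8 M in the GNP library and 52.3 M in the glia library. At these depths the member resting on the fewest reads was Rbp9 in GNP, with about 433 to 983 reads depending on which annotated transcript length is taken. The gene repo, whose promoter drives the glial tag, was at 3.84 FPKM in GNP nuclei and 31.97 FPKM in glial nuclei, while gcm was at 40.2 FPKM in GNP nuclei and 21.5 FPKM in glial nuclei.

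Of these genes, elav and futsch encode antigens commonly used to tell a neuron from a glial cell in the fly. The ELAV family proteins bind U-rich RNA and steer the splicing and the choice of 3′ end of neuronal transcripts, and the Elav protein is the standard stain for neurons. Transcripts of elav are also known from neuroblasts and from young embryonic glia, where expression does not last. The other members give neurons a surface protein of the amyloid precursor family, a microtubule-binding protein of the axon, a subunit of the sodium pump and a transcriptional repressor of non-neuronal fate.

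In glial nuclei 4 of the 7 genes had at least 2-fold higher values and 0 had at least 2-fold lower values. Over all genes 21.2% were at least 2-fold higher and 16.4% at least 2-fold lower. These shares are also the background of every count of list genes given below at this limit. The 4 higher genes were fne, Appl, nrv3 and Rbp9, and 3 of them (fne, Appl and nrv3) were at least 4-fold higher, against 8.46% of all genes. Rbp9 missed the 4-fold limit only through the pseudocount, as its FPKM values differed 4.81-fold and its log2 change was 2.22 with a pseudocount of 0.1 FPKM. The remaining genes scrt, futsch and elav had log2 changes of 0.51, 0.38 and -0.78. The median log2 change of the 7 genes was 1.87, and that of all genes was 0.04. Their median level was 10.8 FPKM in GNP nuclei and 62.0 FPKM in glial nuclei, while the median of all genes was 5.85 and 8.22 FPKM.

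**Figure D1:**
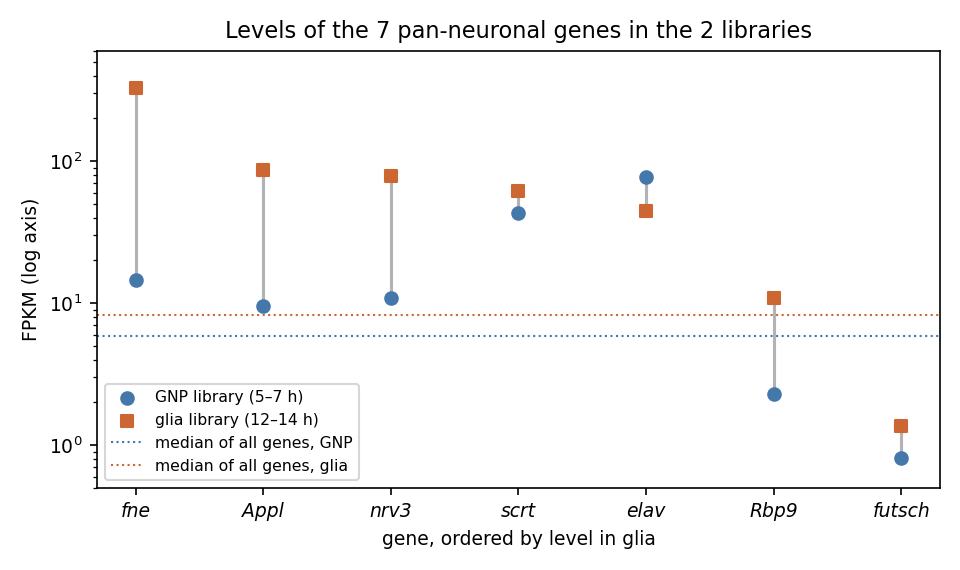
FPKM (log axis) of each pan-neuronal gene in the GNP library (circles) and the glia library (squares), ordered by the level in glia, with 1 library per cell type and hence no error bars. The gene fne reached 327 FPKM in glia, elav is the only gene with its circle above its square, and futsch lies below the median of all genes (dotted lines) in both libraries.

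The 3 ELAV family genes moved in different ways. The gene elav, which encodes the founding nuclear RNA-binding protein of the family, was at 76.9 FPKM in GNP nuclei and 44.2 FPKM in glial nuclei. It was thus the highest of the 7 genes in GNP and the only one with a lower value in glia, with a GNP level 1.74 times the glial level. This log2 change of -0.78 lies under the 2-fold limit, and TPM scaling, which sets the values of each library to the same sum, brought it to -1.04. With this scaling 18.7% of all genes were at least 2-fold higher and 20.4% at least 2-fold lower. The gene fne (found in neurons), whose protein is related to Elav and is found mainly in the cytoplasm, was at 14.7 FPKM in GNP nuclei and 327 FPKM in glial nuclei. This 22.3-fold ratio corresponds to a log2 change of 4.39, which ranked 37 among the 13623 genes of the table from the largest rise downwards. By level, fne ranked 5212 in GNP and 307 in glia. The gene Rbp9, whose protein is known from neurons of the adult brain and from the ovary, was at 2.27 FPKM in GNP nuclei and 10.9 FPKM in glial nuclei, a log2 change of 1.87. It stayed the lowest of the family in both libraries.

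The makeup of the family was therefore different in the libraries. Summed over the 3 genes, the family was at 93.8 FPKM in GNP nuclei and 382 FPKM in glial nuclei. In GNP elav made up 81.9% of this sum, fne 15.6% and Rbp9 2.42%. In glia fne made up 85.6%, elav 11.6% and Rbp9 2.86%. The level of elav was 5.24 times that of fne in GNP, and the level of fne was 7.39 times that of elav in glia. These shares are taken within a library, so no scaling of the libraries alters them.

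**Figure D2:**
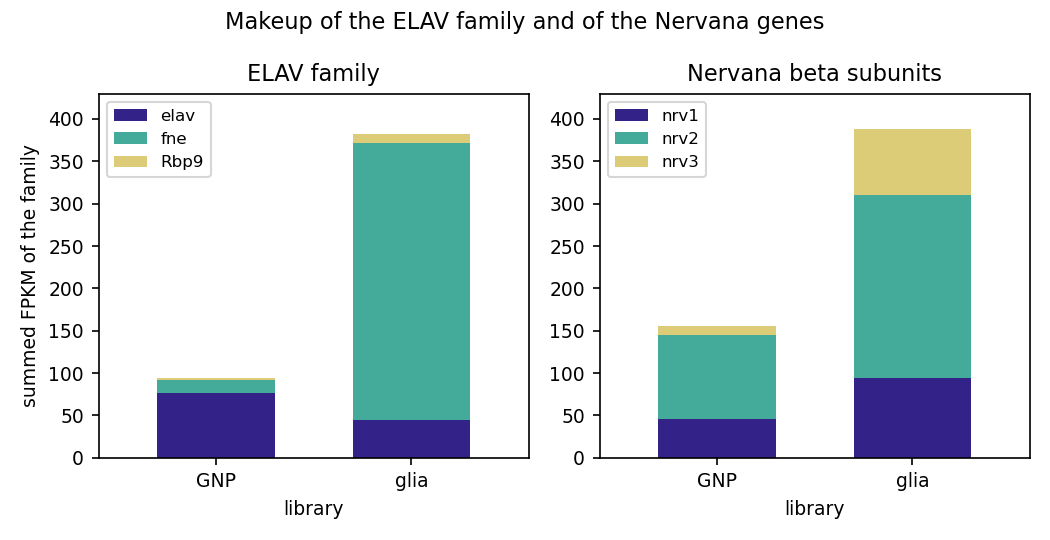
Summed FPKM of the ELAV family (left) and of the Nervana genes for sodium pump beta subunits (right) in the GNP and the glia library, with each gene as a part of the bar. The ELAV family is mostly elav in GNP (81.9%) and mostly fne in glia (85.6%), and nrv3 takes 6.96% of the Nervana sum in GNP and 20.2% in glia.

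Levels of elav and Rbp9 carry a limit of annotation. In the BDGP6 annotation, which is later than that of the authors, elav lies on chromosome X from 509235 to 523226 on the minus strand, and 673 of its exonic bases are shared with exons of arg on the plus strand. The gene arg, which encodes an arginase, was at 4.57 FPKM in GNP nuclei and 15.4 FPKM in glial nuclei. Rbp9, on chromosome 2L from 2954762 to 2968434, shares 142 exonic bases with Ts on the other strand, and Ts was at 27.8 FPKM in GNP nuclei and 7.68 FPKM in glial nuclei. The sources used here do not say whether reads were counted by strand, so reads in the shared bases cannot be given to either gene. The shared bases are 6.28% of the exonic bases of elav and 1.76% of those of Rbp9. The gene fne lies on chromosome X from 12917477 to 12950417. Overlaps could be sought only among the 11036 of the 13623 genes whose symbol is also in BDGP6. Among these no other gene has an exon in common with fne, and the remaining genes were not searched. Annotated transcripts of elav run from 2248 to 10506 bases, those of fne from 3937 to 8872 and those of Rbp9 from 3187 to 6976. An FPKM value divides by such a length, so the level of each depends on the transcripts in the annotation used.

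Appl, the fly member of the amyloid precursor family and a membrane protein of neurons, was at 9.62 FPKM in GNP nuclei and 86.5 FPKM in glial nuclei. The log2 change was 3.04, at rank 343 of all genes. It lies on chromosome X from 530501 to 579044 and has 11 to 12 exons. Genes for the proteins that cut or bind Appl were split. Of 9 such genes 2 were at least 2-fold higher and 3 at least 2-fold lower, against 21.2% and 16.4% of all genes. Their median log2 change was -0.80. X11Lbeta, an adaptor that binds the cytoplasmic tail of amyloid precursor proteins, was at 1.90 FPKM in GNP nuclei and 18.6 FPKM in glial nuclei, a log2 change of 2.75. Its paralog X11L was at 19.2 and 21.9 FPKM. Tace, a metalloprotease, had a log2 change of 1.93, while kuz, the protease with alpha-secretase activity, was at 59.9 and 28.2 FPKM with a log2 change of -1.06. The beta-secretase gene Bace was at 4.07 FPKM in GNP nuclei and 0.843 FPKM in glial nuclei. Of the gamma-secretase subunits, nct had the lowest log2 change at -1.77, followed by Psn at -0.96 and aph-1 at -0.80, and pen-2 was at 29.1 and 30.0 FPKM. TPM scaling raised the number of these 9 genes that were at least 2-fold lower from 3 to 5.

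The gene nrv3 encodes Nervana 3, a beta subunit of the sodium pump found in the nervous system, and lies on chromosome 2L from 21380000 to 21393319. It was at 10.8 FPKM in GNP nuclei and 78.4 FPKM in glial nuclei, a log2 change of 2.75 at rank 503. The other Nervana genes were higher in both libraries and changed less. In glia nrv2, a beta subunit long used as a glial marker, was at 216 FPKM against 98.9 FPKM in GNP, and nrv1 was at 93.9 FPKM against 46.0 FPKM. Their log2 changes were 1.12 and 1.01. The share of nrv3 in the sum of the 3 Nervana genes was 6.96% in GNP and 20.2% in glia. The alpha subunit gene Atpalpha, which carries the catalytic site of the pump, was at 133 FPKM in GNP nuclei and 384 FPKM in glial nuclei. Its level was 0.855 times the Nervana sum in GNP and 0.989 times in glia. The other listed pump genes CG5250, CG11703, CG33310 and JYalpha were under 0.5 FPKM in both libraries. With TPM scaling only Atpalpha of the 7 other measured sodium pump genes remained at least 2-fold higher, instead of 3.

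The gene futsch encodes the fly relative of the microtubule-binding protein MAP1B and is the antigen of the neuronal antibody known as 22C10. It was the lowest of the 7 genes in both libraries, at 0.817 FPKM in GNP nuclei and 1.36 FPKM in glial nuclei, a ratio of 1.67. Its level lay at percentile 31.4 of all genes in GNP and 30.5 in glia. The transcripts of futsch are very long, from 19300 to 22255 bases, so this low level still corresponds to about 996 to 1150 reads in GNP and 1363 to 1574 in glia. With a pseudocount of 0.1 FPKM the log2 change was 0.67 in place of 0.38. The gene lies on chromosome X from 1409069 to 1453686 and shares 1186 exonic bases on the same strand with the gustatory receptor gene Gr2a, which was at 0.884 FPKM in GNP nuclei and 0.480 FPKM in glial nuclei. The shared bases are 5.09% of the exonic bases of futsch and 75.9% of those of Gr2a.

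Other genes of the axonal cytoskeleton were split. Of 15 listed genes 6 were higher by at least 2-fold in glia and 2 at least 2-fold lower, with a median log2 change of 0.09 that TPM scaling and centring on the median gene turned below 0. The microtubule-associated genes Map205 and tau had log2 changes of 3.03 and 2.79. Map205 was at 2.39 FPKM in GNP nuclei and 26.7 FPKM in glial nuclei, and tau was at 4.06 and 33.9 FPKM. Klc, the light chain of the kinesin motor, had a log2 change of 2.54, and Ank2, an ankyrin of axons and synapses, one of 2.26. Map60, which encodes a protein of the centrosome, had the lowest log2 change of the list at -2.38. The other gene at least 2-fold lower was chb, at 51.1 FPKM in GNP nuclei and 19.0 FPKM in glial nuclei, a log2 change of -1.38. Jupiter, a microtubule-binding protein, had the highest level in glia with 843 FPKM, against 793 FPKM in GNP. Fmr1, whose protein represses translation of futsch mRNA, was at 24.8 FPKM in GNP nuclei and 65.9 FPKM in glial nuclei, a log2 change of 1.37.

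The gene scrt (scratch) encodes a zinc finger repressor related to Snail that promotes neuronal fate, and lies on chromosome 3L from 3983896 to 3994003. It was at 43.4 FPKM in GNP nuclei and 62.0 FPKM in glial nuclei, a log2 change of 0.51. After elav it was the second highest of the 7 genes in GNP, at percentile 80.3 of all genes, and it lay at percentile 88.0 in glia. Of 5 other zinc finger genes related to Snail, 1 was at least 2-fold higher and 1 at least 2-fold lower. Over all genes the shares were 21.2% and 16.4%. CG12605 was at 0.931 FPKM in GNP nuclei and 12.1 FPKM in glial nuclei, a log2 change of 2.77. The neuroblast gene wor was at 31.1 FPKM in GNP nuclei and 8.57 FPKM in glial nuclei, a log2 change of -1.74. The genes sna, with 47.2 and 43.5 FPKM, and CG17181, with 13.5 and 12.4 FPKM, had log2 changes near 0. The gene esg, at 19.9 and 40.5 FPKM, had a log2 change of 0.99 and lay at the 2-fold limit.

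The order of the 7 genes was not the same in the libraries. In GNP it ran from elav through scrt, fne, nrv3, Appl and Rbp9 down to futsch. In glia it ran from fne through Appl, nrv3, scrt, elav and Rbp9 down to futsch. The genes that led in GNP, elav and scrt, lay at percentiles 89.2 and 80.3 there and did not reach the 2-fold limit. Nor did futsch, the lowest gene, at percentile 31.4 in GNP. The genes that led in glia lay at percentiles 55.6 to 61.7 in GNP and 90.5 to 97.8 in glia. Each of these groups was picked by its level in 1 of the libraries, so part of such a contrast follows from the choice. Whether neighbours in these orders differ beyond their spread cannot be given with 1 library of each cell type.

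Levels of the neuronal genes in the glia library were set beside those of 12 glial marker genes. The glial list had a median of 43.3 FPKM in glia and 14.8 FPKM in GNP. The level of fne in glia was above all 12 glial markers, that of Appl above 11 of them, and those of nrv3 and scrt above 10. The level of elav in glia was above 8 of the 12 markers, that of Rbp9 above 1 and that of futsch above 0. In GNP elav was above 11 of the 12. Among the glial markers 6 had at least 2-fold higher values in glia and 0 at least 2-fold lower values, with a median log2 change of 0.86. The largest change was that of alrm, a marker of astrocyte-like glia, at 2.27 FPKM in GNP nuclei and 43.5 FPKM in glial nuclei. The highest level in glia was that of nrv2, and the lowest log2 change was that of pnt at -0.41. The astrocyte transporter gene Eaat1 was at 2.00 and 2.84 FPKM.

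**Figure D3:**
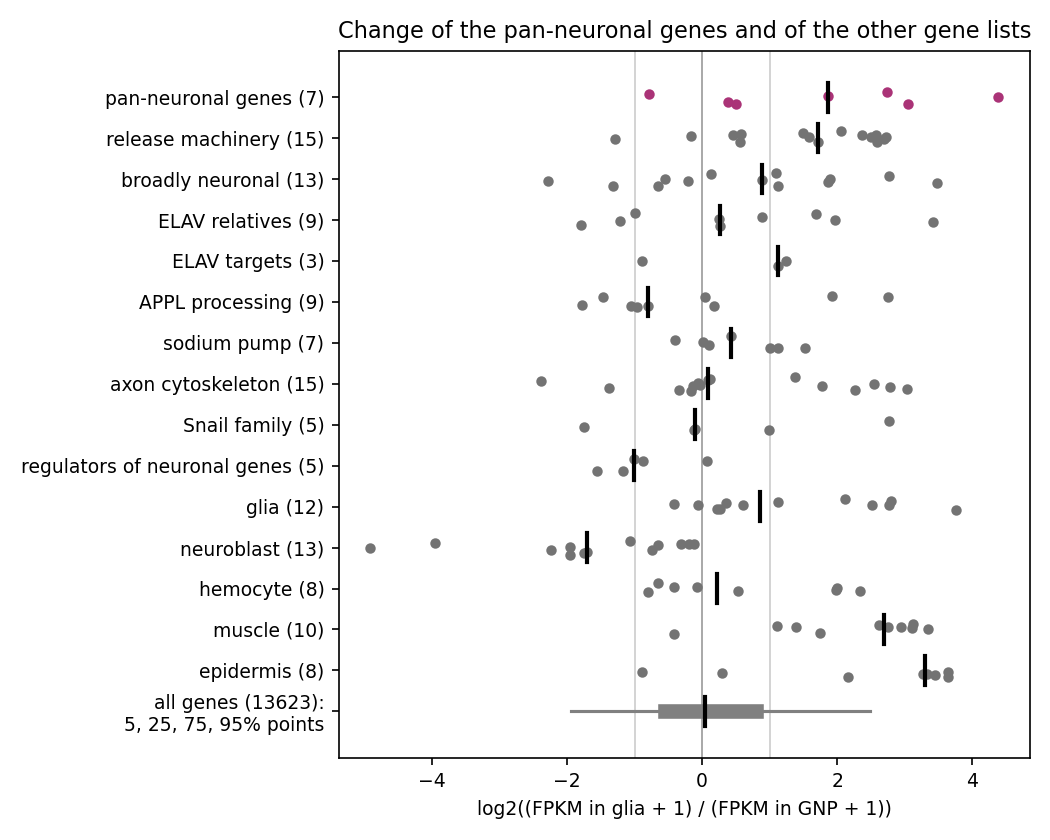
Log2 change from GNP to glia on the log2(FPKM + 1) scale for each gene (point) of the pan-neuronal set and of 14 gene lists, with the median of each as a black line, the 2-fold limits as thin lines and, at the bottom, the spread over all 13623 genes. The pan-neuronal genes run from -0.78 (elav) to 4.39 (fne), with a median of 1.87. Medians were higher for the epidermis (3.30) and muscle (2.69) lists, 1.72 for the release machinery and -1.70 for neuroblast genes.

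The release machinery of the synapse is another set of genes broadly used in neurons. Among 15 such genes 10 had at least 2-fold higher and 1 at least 2-fold lower values in glia, with a median log2 change of 1.72. Their median level was 4.61 FPKM in GNP nuclei and 22.0 FPKM in glial nuclei. Syn, the synapsin gene, had the largest log2 change at 2.73, and Csp, a chaperone of synaptic vesicles, had one of -1.29 and the highest glial level of the list at 71.2 FPKM. Appl, nrv3 and fne were above all 15 of these genes in glia, and Rbp9 was above 2. No test of a difference between these sets was possible.

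Among 13 other genes broadly used in neurons, 6 were at least 2-fold higher and 2 at least 2-fold lower, with a median log2 change of 0.89. Syt4, a synaptotagmin, was at 3.02 FPKM in GNP nuclei and 43.7 FPKM in glial nuclei, a log2 change of 3.47. The gene cpo, which encodes an RNA-binding protein of the nervous system, had the highest level in glia with 178 FPKM and a log2 change of 2.77. The gene jeb, a secreted ligand of the Alk receptor, had the lowest log2 change at -2.28. The gene nerfin-1, a zinc finger gene of young neurons, was at 37.2 FPKM in GNP nuclei and 23.2 FPKM in glial nuclei.

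RNA-binding proteins outside the ELAV family went both ways. Of 9 listed genes 3 were at least 2-fold higher and 3 at least 2-fold lower, against 21.2% and 16.4% of all genes. The genes bru-3 and bru-2 of the Bruno family had log2 changes of 3.42 and 1.69, and shep, a neuronal RNA-binding protein, one of 1.97. Rox8 had the lowest log2 change at -1.80, and pAbp, the general poly(A)-binding protein, had the highest level in glia with 2028 FPKM. The closest relatives of the ELAV family on the list are Sxl, the master gene of sex determination, and ssx. Sxl was at 131 FPKM in GNP nuclei and 158 FPKM in glial nuclei, and ssx, at 116 and 57.3 FPKM, lay just past the 2-fold limit. Of 3 genes whose transcripts are known to be spliced under the control of Elav, Nrg and ewg were at least 2-fold higher, with log2 changes of 1.12 and 1.25, and arm had a log2 change of -0.89. With TPM scaling 1 of these genes was at least 2-fold higher and 1 lower.

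The 5 listed regulators of neuronal genes had lower or similar values in glia. The repressor gene ttk, whose protein holds back neuronal fate in non-neuronal cells, was at 109 FPKM in GNP nuclei and 114 FPKM in glial nuclei. The genes phyl and sina, whose products lead to breakdown of the Ttk protein, were at 51.4 and 51.7 FPKM in GNP and at 22.3 and 25.2 FPKM in glia. Their log2 changes were -1.17 and -1.01. CoRest, a corepressor, had the lowest log2 change of these genes at -1.56, and lola had the highest level in glia at 513 FPKM, against 940 FPKM in GNP. Among these 5 genes 0 had at least 2-fold higher and 3 at least 2-fold lower values. With upper quartile scaling 1 of them was lower, and of all 13623 genes 1872 were lower and 3241 higher.

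Markers of other cell types also differed between the libraries. Of 10 muscle genes 9 were higher by at least 2-fold in glia, with a median log2 change of 2.69. The muscle list summed to 1010 FPKM in GNP nuclei and 6773 FPKM in glial nuclei. Act57B alone was at 473 and 3197 FPKM, and Mef2 had the lowest log2 change of the list at -0.41. Of 8 genes of epidermis and cuticle 6 were at least 2-fold higher, with a median log2 change of 3.30. Their sums were 269.9 and 1617 FPKM, and ovo had the lowest log2 change at -0.88. Of 8 measured hemocyte genes 3 were at least 2-fold higher, with sums of 197 and 553 FPKM. These 3 were the matrix genes Cg25C, vkg and Pxn. The hemocyte regulator srp was at 45.2 FPKM in GNP nuclei and 28.5 FPKM in glial nuclei, the receptor gene crq at 29.5 and 21.9 FPKM and Hml at 0.945 and 0.120 FPKM, and eater is listed at 0 in glia. Of 13 neuroblast genes 8 were at least 2-fold lower and 0 higher, with sums of 645 and 267 FPKM. Apart from eater, no gene of these lists is listed at 0. The 7 pan-neuronal genes summed to 158 FPKM in GNP nuclei and 611 FPKM in glial nuclei. The paper reports a high purity for both sets of nuclei, measured as the share of nuclei with the mCherry tag. The part of other cells or their RNA in the values of the pan-neuronal genes was not tested.

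For each of the 7 genes the most similar gene with a name was sought by the Euclidean distance over log2(FPKM + 1) in the 2 libraries. It was rho-4 for elav, Obp56a for fne, beat-IIa for Rbp9, MFS3 for Appl, GstD7 for futsch, mbl for nrv3 and Past1 for scrt. The distances ran from 0.0046 for elav to 0.17 for fne. With 2 libraries such a likeness means only that the 2 levels are close. For fne the levels of Obp56a were 13.1 FPKM in GNP nuclei and 347 FPKM in glial nuclei, and for nrv3 those of mbl were 10.4 and 77.4 FPKM.

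**Figure D4:**
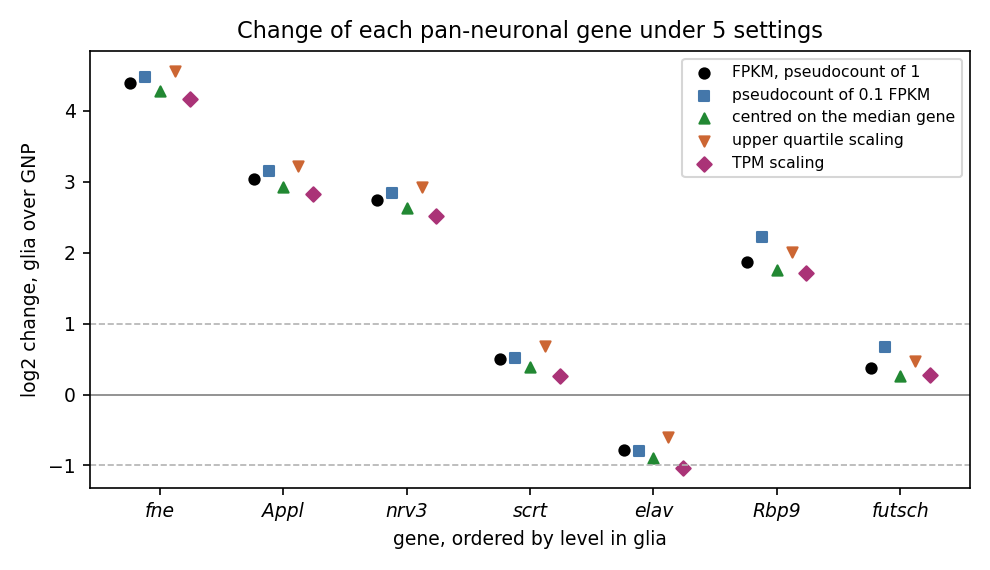
Log2 change from GNP to glia of each pan-neuronal gene, ordered by level in glia, under the deposited FPKM scale with a pseudocount of 1 and under 4 other settings (marker shapes), with dashed lines at the 2-fold limits. The genes fne, Appl, nrv3 and Rbp9 stay above the upper limit under all 5 settings, scrt and futsch stay between the limits, and elav crosses the lower limit only with TPM scaling, at -1.04.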

How the data were processed

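The 2 libraries of nuclear RNA, GNP and glia, were compared. The authors sequenced 49 bp single ends and placed the reads on FlyBase transcripts (release 5.43) by TopHat (1.3.1, dm3 in the labels). Cuffdiff (1.3.0) then gave the deposited FPKM of each gene, which the methods call RPKM. A p-value and a call per gene from the authors' own comparison are also deposited, and neither column was used. Log2 changes were computed with a pseudocount of 1 FPKM over all 13623 genes, without a filter and without a test.

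Depth was estimated from genes whose only annotated transcript has at least 600 bases, assuming fragments of 200 bases. The share of low values within 0.1 of a whole read was 82.2% for GNP and 83.0% for glia, a tolerance that multiples of these depths also meet. The count of changed genes and the depth estimate were run on simulated data. These were made with the same fragment and transcript lengths, so the lengths themselves were not tested. Coordinates and lengths come from BDGP6, and no coordinate was converted.

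The 7 genes and the 14 hand-written lists were chosen with earlier results of these data known. CG8663 of the sodium pump list is a synonym of nrv3 and dropped out, and NimC1 of the hemocyte list was not matched. Text names the 7 genes, their paralogs and partners, the drivers of the tag, the nearest gene to each, and of the lists the largest rise, the largest fall and the highest glial level, for the marker lists only where they bear on the 7 genes. X11L, Klc, Ank2, chb, Eaat1, nerfin-1, shep, bru-2, Hml, srp and crq were named after their values were seen. The genes tau, phyl, sina, vkg and eater also lie outside these rules of naming. The growth notes give a 2 h collection with 3 and 10 h of further development, which falls short of the ages in the same labels, while the methods give 5 and 12 h, which fit them. Alternatives were a pseudocount of 0.1 FPKM, centring, upper quartile and TPM scaling, limits of 1.5-fold and 4-fold, a mean of at least 1 FPKM, and percentiles over genes above 0. Software was Python 3.11.15, numpy 2.4.6, pandas 2.3.3 and matplotlib 3.10.9.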

Additional observations from a re-analysis of the deposited data

How the results depend on the processing

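The changes of the 7 genes kept their direction under the pseudocount of 0.1 FPKM and the 3 scalings, and 27 of 28 such values kept their side of the 2-fold limit. The exception was elav with TPM scaling, at -1.04, which made the number of the 7 genes at least 2-fold lower 1 instead of 0. A limit of 1.5-fold also gave 1, and at this limit 24.1% of all genes were lower and 29.8% higher. The number at least 2-fold higher was 3 with the 4-fold limit, which removed Rbp9 on the scale with a pseudocount of 1, and 4 otherwise. At 4-fold 1153 of all genes were higher and 614 lower, as a stricter limit must give. TPM scaling changed the larger side, with 18.7% of all genes higher and 20.4% lower in place of 21.2% and 16.4%. The median shift was -0.24 with TPM, -0.11 with centring and 0.17 with upper quartile scaling. Of the list medians, 58 of 70 alternatives kept sign and side of the limit and 3 changed sign near 0. Of the list counts, 166 of 196 stayed within 1.5 times. With 1 library of each cell type, no setting shows whether a difference would recur, and no library could be left out. No paired analysis was possible because each group has 1 library.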

Other observations

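In the BDGP6 annotation elav and Appl lie near each other on chromosome X, with 7274 bases between them, and point away from each other. Their values went different ways, with elav at 76.9 and 44.2 FPKM in GNP and glial nuclei and Appl at 9.62 and 86.5 FPKM.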
